A study of Homo sapiens with 8 samples.

Results

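Nuclear tRNAs other than arginine accounted for 41 of the 538 enriched peaks in the deposited miCLIP-sequencing lists of NOP2/NSUN1. They were taken as every peak, on any reference sequence, whose annotation names a nuclear tRNA of an amino acid other than arginine. Of these, 15 were among the 251 peaks of the WT list (5.98%) and 26 among the 287 peaks of the C459A list (9.06%). They lay on 28 references, which stand for 27 genes of 10 anticodons and 8 amino acids (Phe, Lys, Asn, Ser, Gly, Pro, Leu and selenocysteine, SeC). All 27 names were matched to tRNA genes of the RefSeq annotation (GRCh38.p14), on 9 chromosomes.

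The study used HEK293T cells, a line derived from human embryonic kidney, which were given a plasmid encoding FLAG-tagged NOP2/NSUN1 and harvested after 40 h. The plasmid encoded the protein as WT or with the C459A mutation, which removes the cysteine needed to release a methylated RNA from its covalent bond with the enzyme. For each construct, the RNA from the FLAG IP and from the paired size-matched input (SMInput) was sequenced in 2 biological replicates, 8 libraries in 4 groups. The tagged protein was driven by a CMV promoter, beside the NOP2/NSUN1 of the cells themselves, no UV crosslink was used, and the RNA was digested with RNase T1. There was no mock library, since by the paper the mock IP yielded too little RNA to make one.

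A tRNA is a short RNA made by RNA polymerase III that folds into an acceptor stem and 3 arms. The anticodon in the loop of the middle arm reads the codon, and an enzyme adds the letters CCA to the 3′ end, where the amino acid is attached. Human tRNA genes occur in families whose copies are often identical in sequence, so that a read can fit several copies. Cytosines of tRNAs are known targets of other methyltransferases, NSUN2 near the variable loop and DNMT2 in the anticodon loop, while NOP2/NSUN1 is known for rRNA. RNase T1 cuts single-stranded RNA after G.

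Each listed peak has a first and last base on its reference, the log2 of its fold change, IP against SMInput (0 is no difference, and 1 is a doubling), and an adjusted p from the peak caller Peakachu. A peak was listed when its fold change was at least 2 and its adjusted p was under 0.05. Both replicates enter each value, so every reference has 1 value per construct and replicate error cannot be had. Read counts are not listed, so the depth is unknown. A tRNA reference absent from a list had no peak that met these limits there, and its values are unknown. Such an absence is no test between WT and C459A, and none was made. The lists hold no expression levels, so the tRNA content of the cells was not measured by them.

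The sequences below show which letters the peaks covered, since the anticodon families differed in this. They are the genes with the smallest adjusted p of each anticodon, with TRF-GAA2-1 added as a near-identical gene, read from hg38 in the sense of the tRNA at the places that RefSeq gives. Capitals mark the bases covered by the C459A peak, or by the WT peak for TRL-CAG1-2. TRU-TCA1-1 is in lower case because its peak could not be placed on the gene. The Phe genes shown lie at chr6:28981672-28981744 (minus strand) and chr11:59566380-59566452 (minus), and the Lys gene at chr1:204506527-204506599 (plus). The Asn gene lies at chr1:148529257-148529330 (plus), and the Ser genes at chr6:27541775-27541856 (minus) and chr6:27545689-27545770 (plus). The Gly gene lies at chr1:146037061-146037132 (plus), the Pro genes at chr1:167715488-167715559 (minus) and chr14:20684016-20684087 (plus), the Leu gene at chr1:161448951-161449033 (plus) and the SeC gene at chr19:45478601-45478687 (minus).
TRF-GAA1-2: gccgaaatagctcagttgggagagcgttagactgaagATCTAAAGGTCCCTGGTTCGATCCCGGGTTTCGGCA
TRF-GAA2-1: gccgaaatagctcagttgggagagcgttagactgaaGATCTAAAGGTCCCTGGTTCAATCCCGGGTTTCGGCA
TRK-TTT3-1: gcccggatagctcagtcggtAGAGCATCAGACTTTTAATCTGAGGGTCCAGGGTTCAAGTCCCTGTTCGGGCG
TRN-GTT2-1: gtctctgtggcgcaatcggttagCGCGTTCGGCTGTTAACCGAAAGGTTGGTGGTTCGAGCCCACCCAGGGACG
TRS-AGA1-1: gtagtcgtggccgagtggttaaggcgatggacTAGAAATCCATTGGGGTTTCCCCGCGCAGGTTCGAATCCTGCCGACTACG
TRS-TGA2-1: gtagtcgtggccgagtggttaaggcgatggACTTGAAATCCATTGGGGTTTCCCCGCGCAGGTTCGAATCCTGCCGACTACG
TRG-TCC2-1: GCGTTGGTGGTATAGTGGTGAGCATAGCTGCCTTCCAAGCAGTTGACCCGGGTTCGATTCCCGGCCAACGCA
TRP-AGG2-1: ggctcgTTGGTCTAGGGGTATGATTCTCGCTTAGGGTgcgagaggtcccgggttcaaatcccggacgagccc
TRP-TGG3-2: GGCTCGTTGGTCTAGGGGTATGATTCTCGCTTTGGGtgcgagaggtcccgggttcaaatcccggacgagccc
TRL-CAG1-2: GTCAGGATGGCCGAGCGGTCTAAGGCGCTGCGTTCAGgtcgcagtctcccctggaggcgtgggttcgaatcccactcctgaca
TRU-TCA1-1: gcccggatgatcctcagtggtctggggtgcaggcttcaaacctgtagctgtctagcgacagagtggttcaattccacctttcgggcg

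These capitals rest on a placement of the tRNA within its reference that the sources do not state. The C459A list has a peak on the genome over the tRNA-Phe-GAA-1-4 gene as well as a peak on the reference of the same tRNA, and their starts, bases 38 and 48, differ by 10, while their ends, bases 74 and 86, differ by 12. The first base of each tRNA was therefore taken as base 11 of its reference, the base at which 6 of the peaks here start. Across all 55 peaks on tRNA references, arginine included, the last base never exceeded the gene length by more than 23. The same comparison in arginine tRNAs, where 3 pairs could be made, gave starts that differ by 2, -3 and 5 bases and ends that differ by 15, 17 and 16, so the placement may be off by several bases. Positions below count from 1 at the 5′ end of the tRNA gene, and ranges of covered bases are cut at its ends. By this placement, 19 of the 40 placed peaks ended more than 3 bases past the gene.

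By this placement, the covered part split the families into 3 kinds. A peak that came within 10 bases of the last base of the gene but not of the first was called a 3′ part peak, the reverse a 5′ part peak, and a peak that reached both a whole tRNA peak. Every Phe, Lys, Asn and Ser peak was a 3′ part peak (10 in WT and 14 in C459A), every Gly peak a whole tRNA peak (3 and 5), and every Pro and Leu peak a 5′ part peak (2 and 6). The 3′ part peaks began between bases 20 and 38, and 7 of 10 in WT and 9 of 14 in C459A had their first base in the anticodon loop. Several of these starts, at base 38 of identical or near-identical Phe genes, lay on the last base of the loop. A placement 1 base further towards the 3′ end would move them out of it, and the count was not repeated at another placement. The 5′ part peaks ended between bases 34 and 45, with the last base in the anticodon loop for 1 of 2 in WT and 4 of 6 in C459A. Arginine tRNAs had 3′ part peaks for 10 of 11 peaks in WT and 8 of 10 in C459A, and a whole tRNA peak for 0 and 1. A further arginine peak in each list was not placed, and none was a 5′ part peak. The covered letters held between 4 and 19 cytosines per peak, so the covered stretch does not single out a cytosine. The paper located crosslinked cytosines by the starts of reads, and it named such sites on an rRNA and a vault RNA only.

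**Figure D1:**
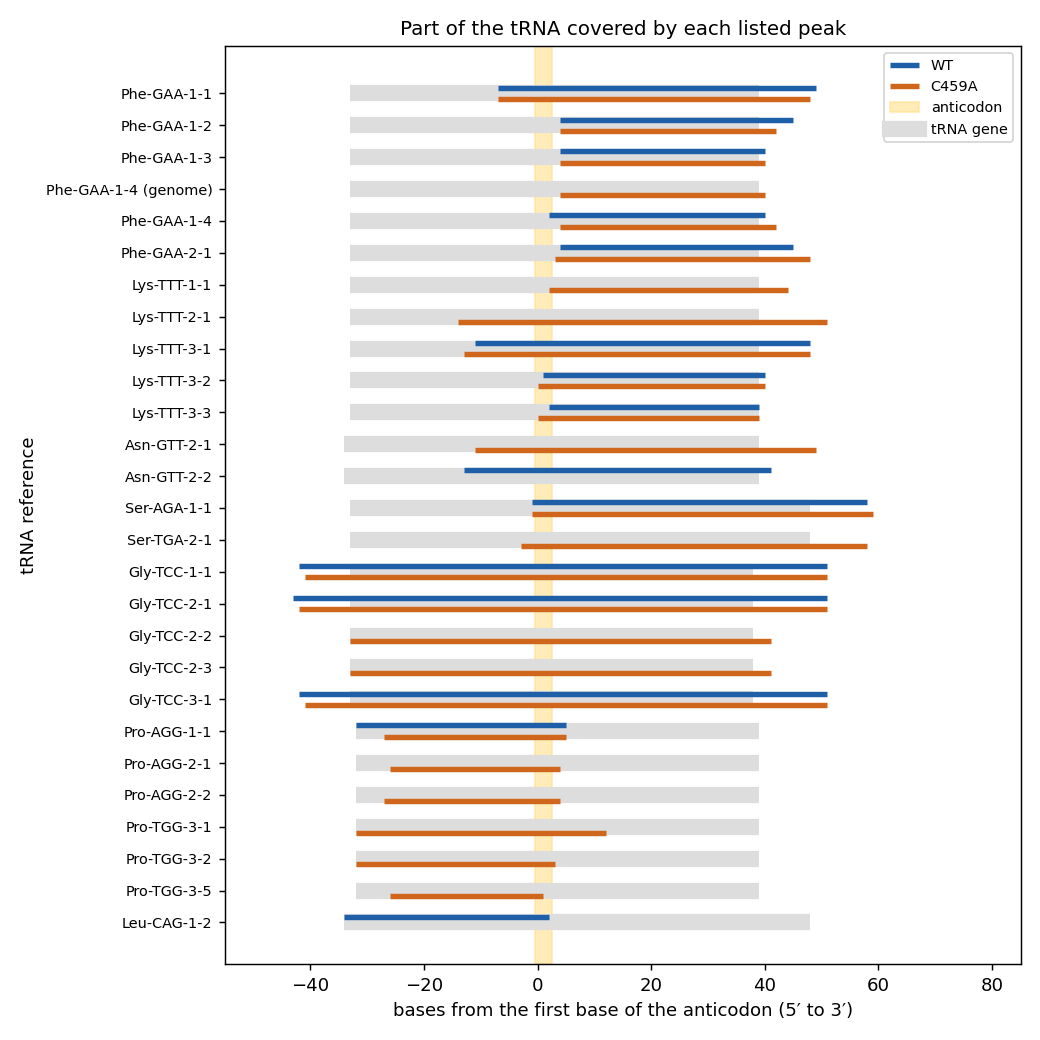
Part of the tRNA covered by each of the 40 peaks that could be placed. The x axis gives bases from the first base of the anticodon in the sense of the tRNA, grey bars are the tRNA genes, the yellow band is the anticodon, and blue and orange lines are the WT and C459A peaks of each reference. Phe, Lys, Asn and Ser peaks start near or before the anticodon and run to the 3′ end, Gly peaks span the gene, and Pro and Leu peaks start near the 5′ end and stop near the anticodon.

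Phe-GAA tRNAs, which read the phenylalanine codons, had peaks on 5 of their 11 RefSeq genes, and the same 5 genes in WT and C459A. On tRNA-Phe-GAA-1-1, the log2 fold change was 1.60 in WT (the authors' adjusted p = 0.00296) against 1.80 in C459A (adjusted p = 0.000167), both over bases 27 to 73 of the gene, which lies at chr6:28790722-28790794. On tRNA-Phe-GAA-1-2, the values were 4.27 in WT (the authors' adjusted p = 4.79e-05) against 4.32 in C459A (adjusted p = 2.28e-05), over bases 38 to 73. These differ by 0.05 between the constructs, while the difference between the copies is far larger within each. On tRNA-Phe-GAA-1-3 at chr11:59557497-59557569, the value was 5.07 in WT (the authors' adjusted p = 5.74e-05) against 4.09 in C459A (adjusted p = 7.59e-05), also over bases 38 to 73. On the reference of tRNA-Phe-GAA-1-4, it was 3.26 in WT (the authors' adjusted p = 0.000568) against 3.63 in C459A (adjusted p = 8.65e-05). The genome peak over this gene, at chr12:124927842-124927878 on the minus strand, was in the C459A list alone and had the highest log2 fold change of the C459A peaks on the tRNAs described here, 5.43 (the authors' adjusted p = 0.000724). tRNA-Phe-GAA-2-1, which differs from the other 4 genes by G57A in the T loop (the base of copy 1-1 is named first), had low values of 1.97 in WT (the authors' adjusted p = 0.00639) against 2.13 in C459A (adjusted p = 0.000102).

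Lys-TTT tRNAs, which read the lysine codons and also prime the reverse transcription of HIV, had peaks on 3 of 13 genes in WT and 5 in C459A. The first 3 copies of the Lys-TTT-3 sequence were in both lists. tRNA-Lys-TTT-3-1 reached 2.24 on the log2 scale in WT (the authors' adjusted p = 0.000904) against 2.93 in C459A (adjusted p = 6.65e-06), with the C459A peak beginning at base 21. tRNA-Lys-TTT-3-2 at chr1:204507030-204507102 had 5.50 in WT (the authors' adjusted p = 5.61e-05) against 4.70 in C459A (adjusted p = 8.57e-05), beginning at bases 35 and 34. tRNA-Lys-TTT-3-3 at chr6:28951029-28951101 had 5.04 in WT (the authors' adjusted p = 0.00640) against 4.32 in C459A (adjusted p = 0.0194). The copy with the long peak was thus the lowest in both lists, and the copies with peaks that begin at the anticodon were the highest. The other Lys genes were listed in C459A alone. tRNA-Lys-TTT-2-1, which differs from the Lys-TTT-3 copies by C4T, C17T and G69A (the base of Lys-TTT-3 first), had 2.80 (the authors' adjusted p = 0.000316) over bases 20 to 73. tRNA-Lys-TTT-1-1, which has G73A besides, had 3.38 (the authors' adjusted p = 0.0270) over bases 36 to 73. The second lysine anticodon had no listed peak.

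Asn and Ser tRNAs were the remaining families with 3′ part peaks. Of 22 Asn-GTT genes, tRNA-Asn-GTT-2-2 at chr1:161428077-161428150 was listed in WT at a log2 value of 4.25 (the authors' adjusted p = 0.0471, the largest of the WT list) and tRNA-Asn-GTT-2-1 in C459A with 2.09 (adjusted p = 0.00551). These genes are identical in sequence, and the peaks covered bases 22 to 74 and 24 to 74. The lists therefore hold the same asparagine tRNA under different copies, although no Asn reference is shared. Ser tRNAs have a long variable arm, which the peaks included. tRNA-Ser-AGA-1-1 had 2.34 in WT (the authors' adjusted p = 0.00857) against 1.94 in C459A (adjusted p = 0.00643), each over bases 33 to 82. tRNA-Ser-TGA-2-1, which differs from it by A34T, the first base of the anticodon (the base of Ser-AGA first), was listed in C459A alone with 4.40 (the authors' adjusted p = 0.0135) over bases 31 to 82. These were 1 of 10 Ser-AGA genes and 1 of 4 Ser-TGA genes.

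Gly-TCC tRNAs, which read the glycine codons ending in A or G, had whole tRNA peaks throughout, and no other tRNA described here had one. The Gly peaks had low fold changes in both lists, with medians on the log2 scale of 1.42 in WT and 2.27 in C459A, against 3.76 and 3.51 for the 3′ part peaks. tRNA-Gly-TCC-1-1 at chr19:4724070-4724141 had 1.18 in WT (the authors' adjusted p = 0.0283) against 2.05 in C459A (adjusted p = 5.05e-06). tRNA-Gly-TCC-2-1 had 1.42 in WT (the authors' adjusted p = 0.00889) against 2.27 in C459A (adjusted p = 4.40e-11), the smallest adjusted p of the 41 peaks and rank 49 in its list. tRNA-Gly-TCC-3-1 at chr17:8221548-8221619 had 1.79 in WT (the authors' adjusted p = 0.00335) against 2.68 in C459A (adjusted p = 3.67e-09). The C459A value was thus higher by 0.87, 0.85 and 0.89 on the log2 scale, with the spread between replicates unknown. These genes differ by a single base, G20T in Gly-TCC-1-1 and G20A in Gly-TCC-3-1 relative to Gly-TCC-2-1, so their reads are hard to tell apart and the 3 differences are not separate observations. On all 3 references the peak ran to base 95 of the reference, which is 23 bases more than the gene length of 72. The copies tRNA-Gly-TCC-2-2 and tRNA-Gly-TCC-2-3 were listed in C459A alone, at 1.67 (the authors' adjusted p = 0.0433) and 2.37 (adjusted p = 0.0264), with peaks from the first base of the gene to 3 bases past its last, the length of the added CCA. Of 9 Gly-TCC genes 3 had a peak in WT and 5 in C459A, and the other glycine anticodons had none.

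Counted by gene copy, Pro tRNAs had the largest number of genes listed in C459A but not in WT. tRNA-Pro-AGG-1-1 at chr16:3191989-3192060 was in both, at 2.16 in WT (the authors' adjusted p = 0.0438) against 2.50 in C459A (adjusted p = 0.00436), over bases 1 to 38 and 6 to 38. It differs by G36A, the base after the anticodon, from the Pro-AGG-2 copies (their base first). Of these, tRNA-Pro-AGG-2-1 had 2.98 in C459A (the authors' adjusted p = 0.000891) over bases 7 to 37, and tRNA-Pro-AGG-2-2 at chr6:26555270-26555341 had 5.15 (adjusted p = 0.00796) over bases 6 to 37. Neither was in the WT list. Pro-TGG tRNAs differ from Pro-AGG-2 by A33T, the first base of the anticodon, and were in the C459A list alone. There tRNA-Pro-TGG-3-1 at chr5:181188854-181188925 had 3.22 (the authors' adjusted p = 0.00303) over bases 1 to 45. tRNA-Pro-TGG-3-2 had 5.14 (the authors' adjusted p = 0.00293) over bases 1 to 36, and tRNA-Pro-TGG-3-5 at chr16:3188094-3188165 had 2.96 (adjusted p = 0.0181) over bases 7 to 34. In all, 1 of 9 Pro-AGG and 0 of 7 Pro-TGG genes had a peak in WT, against 3 and 3 in C459A. By distinct sequence, Pro-AGG held 1 in WT and 2 in C459A, and Pro-TGG 0 and 1, while Lys-TTT held 1 and 3. The Pro copies are identical or differ by few bases, so their reads are hard to tell apart and these genes are not separate observations. Values below the threshold are not in the lists, so whether the Pro tRNAs differed between the constructs was not tested.

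Leu and SeC tRNAs had 1 peak each. tRNA-Leu-CAG-1-2, which reads a leucine codon, had the highest log2 fold change on these tRNAs in WT, 6.08 (the authors' adjusted p = 0.0161, rank 20 of the list by fold change), over bases 1 to 37. It was absent from the C459A list, and it is 1 of 7 genes of identical sequence, the others of which had no peak. The SeC tRNA inserts selenocysteine at certain stop codons. Its peak, in C459A alone, lay at bases 60 to 124 of a reference that includes genome flank, at a log2 value of 5.37 (the authors' adjusted p = 0.0201). A second C459A peak, on the 5S rRNA pseudogene RNA5SP325, carries exactly the same fold change and adjusted p.

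**Figure D2:**
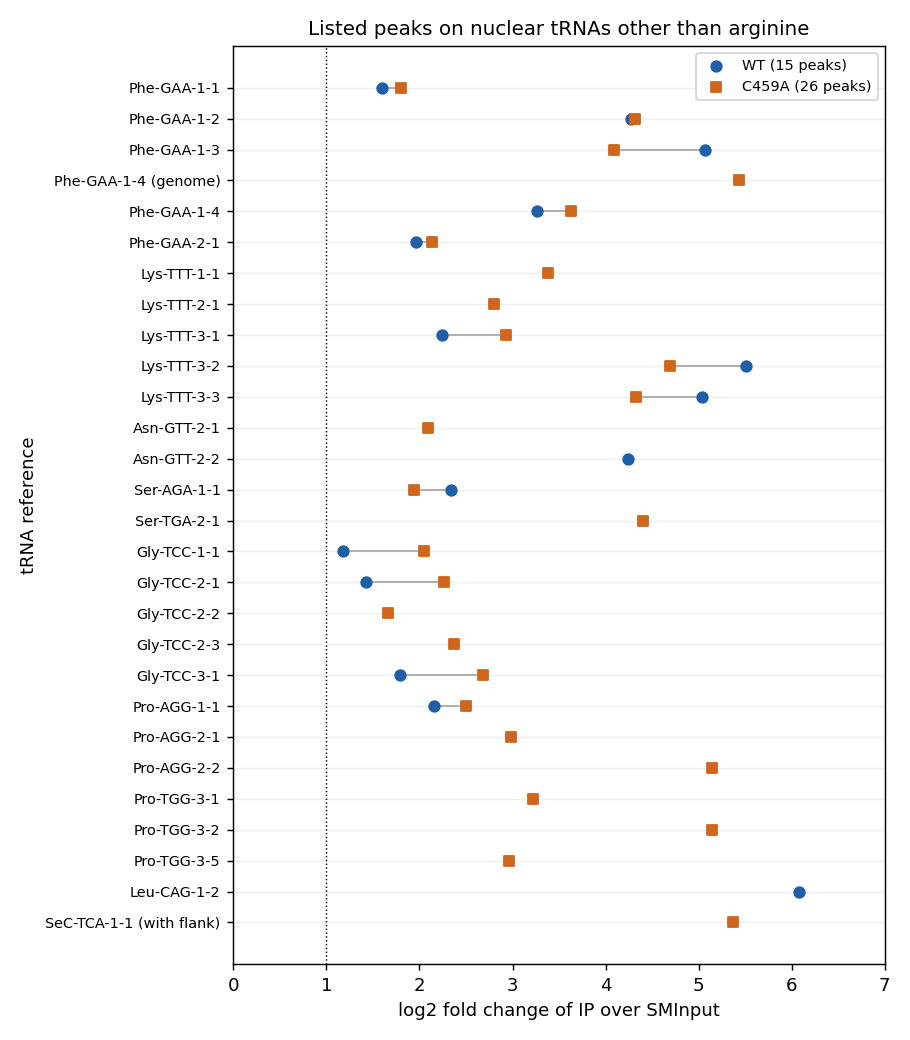
Log2 fold change of IP over SMInput (x axis) for each tRNA reference (y axis), with WT as blue circles and C459A as orange squares. Each point is the pooled value of both replicates, grey lines join the constructs on a shared reference, and the dotted line marks the listing threshold of a 2-fold change. References run from 1.18 (Gly-TCC-1-1, WT) to 6.08 (Leu-CAG-1-2, WT), and 13 hold both symbols.

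Set against all tRNA genes, few were listed. RefSeq names 423 nuclear tRNA genes, and a WT peak was listed for 23 of them (5.44%) and a C459A peak for 33 (7.80%), arginine included. Of the 397 genes other than arginine, 15 had a WT peak and 25 a C459A peak. Of these genes, 13 were in both lists, 2 in WT alone and 12 in C459A alone. By distinct sequence, WT held 10 and C459A 15, of 16 in all. Some genes listed for 1 construct alone are identical in sequence to a gene listed for the other, such as those of Asn-GTT-2. Of the 26 arginine genes, 8 had a peak in each list. Of the 20 amino acids other than arginine that RefSeq names tRNA genes for, SeC included, 12 had no peak in either list. These were Ala, Asp, Cys, Gln, Glu, His, Ile, Met, Thr, Trp, Tyr and Val, among them large families such as Ala with 33 genes, Cys with 29 and Val with 28. A fixed set held 16 other RNAs of RNA polymerase III or of tRNA processing, such as the RNA of RNase P. Of these 16, 0 had a WT peak and 1 a C459A peak, which was VTRNA1-2. The share of all RNA polymerase III RNAs with a peak was not computed, so this count says nothing particular to the set. The set left out 5S rRNA, also made by RNA polymerase III, which had a log2 value of 6.02 in WT and 5.90 in C459A. Pseudogenes of such RNAs, among them RNA5SP325 and RNU6-826P, were not in the set either and had peaks in both lists. The mRNAs of 13 tRNA methyltransferases and processing factors, among them NSUN2 and TRDMT1, had none in either list. The share of all mRNAs with a peak was not computed, so this count says nothing particular to these mRNAs.

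The tRNAs were not among the strongest peaks of the lists. In WT their log2 fold changes lay between 1.18 and 6.08, and the median was 2.34, against 3.44 for the whole list, and 6 of 15 lay above the list median. In C459A they lay between 1.67 and 5.43, and the median was 2.97, against 3.63, and 9 of 26 lay above it. The highest rank by fold change was 20 in WT and 61 in C459A, and the best rank by adjusted p was 81 and 49. Arginine tRNAs had medians of 3.14 in WT and 3.41 in C459A over 11 and 10 peaks, and mitochondrial tRNAs had 4.24 and 5.12 over 4 and 3 peaks. These medians are descriptions of the listed peaks, and no difference between the groups of tRNAs was tested.

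**Figure D3:**
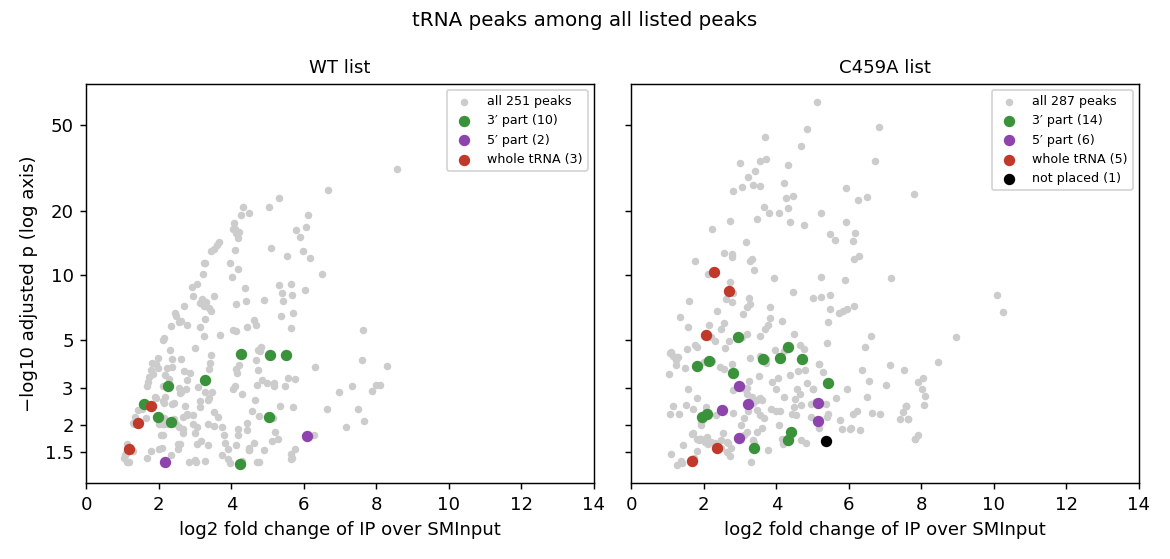
Log2 fold change (x axis) and −log10 of the adjusted p (y axis, log scale) of every listed peak, for WT on the left and C459A on the right. Grey points are all 251 and 287 peaks, and coloured points are the tRNA peaks by the part covered. Whole tRNA peaks sit at low fold changes in both lists, between 1.18 and 1.79 in WT and between 1.67 and 2.68 in C459A.

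Peaks of WT and C459A on the same reference covered nearly the same bases. In all, 13 of the 15 WT peaks (86.7%) shared at least 1 base with a C459A peak, beside 82.5% of all WT peaks, and 13 of the 26 C459A peaks (50.0%) shared a base with a WT peak, beside 71.8% of all C459A peaks. Peaks were matched on the same reference only, here and over the whole lists. A C459A peak thus counts as unshared even where the same gene or an identical copy has a WT peak on another reference. This was so for the genome peak of tRNA-Phe-GAA-1-4, for tRNA-Gly-TCC-2-2 and tRNA-Gly-TCC-2-3, and for tRNA-Asn-GTT-2-1. On the 13 shared references, the bases in common made up a median of 97.6% of those covered in either list. The lowest share was 86.8%, on tRNA-Pro-AGG-1-1. The median share was 94.8% for arginine tRNAs and 94.5% over all 212 overlapping pairs of the lists, so a high share was general. On the 13 references the start moved by at most 5 bases and the end by at most 3. The log2 fold change was higher in C459A on 9 references and lower on 4, with differences from -0.98 to 0.89 and a median of 0.20. The 4 lower ones were tRNA-Phe-GAA-1-3 (-0.98), tRNA-Lys-TTT-3-2 (-0.81), tRNA-Lys-TTT-3-3 (-0.71) and tRNA-Ser-AGA-1-1 (-0.40). On arginine tRNAs all 10 overlapping pairs were higher in C459A, with a median difference of 0.41, and over all 212 overlapping pairs of the lists 101 were higher (47.6%), with a median of -0.14. With 1 pooled value per construct, none of these differences can be set against replicate error.

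Copies of identical sequence carried different values. There were 7 sets of identical copies within a list, made up of 5 sequences, and their log2 fold changes spanned between 0.71 and 3.47. For 6 of the 7 sets this span was larger than 0.98, the largest difference between WT and C459A on a shared reference. The widest span was that of Phe-GAA-1 in WT, from 1.60 on a peak of 57 bases to 5.07 on a peak of 37 bases, and in C459A the same copies spanned 2.52. Lys-TTT-3 spanned 3.26 in WT and 1.77 in C459A, Pro-TGG-3 2.19, Pro-AGG-2 2.16 and Gly-TCC-2 0.71 in C459A. The lowest value belonged to the widest peak in 4 of the 7 sets and to copy 1 in 5 of 7. Not every identical gene had a peak: those with one were 4 of 6 for Phe-GAA-1, 3 of 5 for Lys-TTT-3, 3 of 6 for Gly-TCC-2, 2 of 8 for Pro-AGG-2, 3 of 5 for Pro-TGG-3 and 2 of 8 for Asn-GTT-2. How the aligner shared reads among such copies was not tested, and the copies are not replicates of each other.

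**Figure D4:**
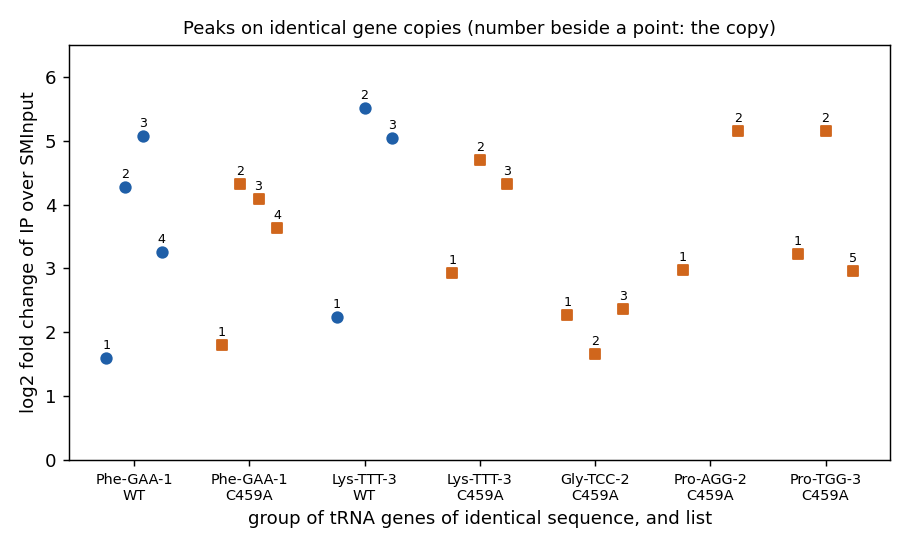
Log2 fold change of IP over SMInput (y axis) of copies of identical sequence, in the 7 sets of a sequence and a list (x axis). Each point is the peak on 1 reference, and the number above it is the copy number in the tRNA name, which has no biological order. Values within a set differ by 0.71 to 3.47.

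The first base of the peaks was set beside the cut of RNase T1. Among the peaks that start inside the tRNA, the base before the start was G for 5 of 10 in WT (50.0%) and 10 of 18 in C459A (55.6%), where G made up 31.9% and 32.6% of the bases of the same genes. In TRF-GAA1-2 above, for example, the lower-case letters end in G just after the anticodon. These letters are genomic and do not show bases that are modified in the RNA. With the start moved by 1 base towards the 5′ end the counts were 1 and 3, and towards the 3′ end 0 and 3. These counts rest on a placement that is not certain to the base. Many of the starts are on identical or near-identical copies. The paper took the starts of reads as stops of reverse transcription. The part of such stops, or of RNase T1, in the peak ends was not tested. The 3′ part peaks and whole tRNA peaks all covered the T loop, near the 3′ end of the tRNA. Its letters GTTCGA or GTTCAA, searched on both strands, were found in 14 and 13 of the 27 genes here and in 65.2% and 28.7% of the 411 RefSeq tRNA genes whose strand could be set, and either of them in 27 of 27 and 93.4%.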

How the data were processed

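Cells of 2 biological replicates per group gave 8 miCLIP-sequencing libraries. By the submitters' processing notes and the methods, adaptors were removed with cutadapt, UMIs were handled with fastp, reads under 18 nt were discarded, and alignment was to hg38 and to repetitive elements grouped in families. Peakachu then called peaks for each construct, with its IP libraries set against its SMInput libraries, and annotations were curated by hand. Tool versions: not given in the sources used here. For each peak, the authors deposited the log2 of its fold change, IP against SMInput. They also deposited the −log10 of its adjusted p-value, which was turned back into a p-value here. Both lists pool the replicates and hold no counts, so no precision follows from depth.

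Members were taken by annotation, and all were named. The members and the lists of other RNAs were chosen with earlier results of these data known. Gene places, strands and names came from RefSeq (GRCh38.p14) and letters from hg38. The code that assigns parts and overlaps was tested on simulated data. These were built with the same 10-base placement, so they do not test the placement itself. The tRNA was placed 10 bases into its reference, and an end counted as reached within 10 bases. Peaks overlapped from 1 shared base. Alternatives were an adjusted p under 0.01, a fold change of at least 4, tRNA references without flank only, 1 value per distinct sequence, overlap of 50%, no offset, 5 bases from an end, and starts moved by 1 base. Computation used python 3.11.15, numpy 2.4.6, pandas 2.3.3 and matplotlib 3.10.9. Reads were not analysed here.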

Additional observations from a re-analysis of the deposited data

How the results depend on the processing

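No paired analysis was possible because each list pools both replicates in 1 value, and for the same reason no replicate could be left out. At a fold change of at least 4, the median log2 fold change was 4.26 in WT (2.34 without this limit) and 3.22 in C459A (2.97), and 7 references in place of 13 had a peak in both lists. With 1 value per distinct sequence, the C459A list held 15 tRNA sequences in place of 26 peaks, with a median of 2.80. With no offset of the tRNA in its reference, the 5′ part peaks of C459A were 2 in place of 6, since the peaks that start at bases 16 and 17 of the reference then lie more than 10 bases from the first base, while the 3′ part peaks stayed at 10 and 14. The count of peaks preceded by G was 10 in C459A and 5 in WT, and fell to 3 and 1 with the start moved 1 base towards the 5′ end, and to 3 and 0 towards the 3′ end. Smaller shifts were those of the WT peaks from 15 to 10 at a fold change of at least 4 and to 10 per distinct sequence, of the 5′ part peaks of C459A from 6 to 4 at 5 bases from an end, and of the peaks at an adjusted p under 0.01 to 11 in WT and 19 in C459A. The median difference of 0.20 was 0.25 per distinct sequence. The unknown depth and the shared reads of identical copies limit every value here.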
